A study of Homo sapiens with 4 samples.

Results

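Cyclins and their kinases, together with the inhibitors, retinoblastoma family proteins and E2F factors that act with them, were described in THP1 cells given a miR-511 mimic or a control mimic. The genes were taken by name: CCN followed by a letter and a digit, CCNH, CDK with a number, CDKN with a digit and a letter, RB1, RBL1, RBL2 and the E2F factors. This rule used no measured value and found 55 of the 27193 gene names on the array, carried by 76 of its 34127 probes. CCND1 was among the genes that the study called changed on these arrays and took for further work. Its arrays here are therefore not independent evidence on it. The study reported CCND1 lower with miR-511 by RT-qPCR in additional independent experiments at later time points. It also reported less signal from a luciferase reporter carrying the CCND1 untranslated region, in another cell line. Deleting a predicted miR-511 site removed that effect. In THP1 cells it reported lower cyclin D1 protein and a smaller share of cells in S phase, again at later time points.

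THP1 is a human monoblastic leukemia line. Mimics are synthetic RNAs that bring a ready-made miRNA into the cells they are transfected into. All cells were treated once with 30 nM of mimic, either miR-511-5p or negative control #1, then kept in low-serum medium until RNA was harvested on day 2. There were 2 independent experiments, and each gave 1 array per treatment, so the data are 4 single-dye Agilent arrays. All cells carry the line's own genotype, no untransfected cells were part of the comparison, and a synthetic mimic supplies the miRNA from outside the cell. In bulk RNA, fewer cells in a cycle phase and less RNA per cell cannot be told apart.

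D-type cyclins bind CDK4 and CDK6, and these kinases start the phosphorylation of the retinoblastoma protein RB1, which releases E2F factors to transcribe the genes of DNA replication. Cyclin E with CDK2, cyclin A with CDK2 or CDK1 and cyclin B with CDK1 then carry the cell through S phase and into mitosis. INK4 proteins block CDK4 and CDK6, and CIP/KIP proteins bind a wider range of cyclin-CDK complexes. Several CDKs and cyclins act on RNA polymerase II instead, among them CDK7 with CCNH and CDK9 with CCNT1 or CCNT2. A miRNA represses transcripts that pair with its seed, bases 2 to 8 of the mature strand. The sequence of the miRNA that was supplied is shown from RefSeq (GRCh38.p14, chr10:17845122-17845142, plus strand), with the seed in capitals.
hsa-miR-511-5p: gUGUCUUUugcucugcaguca

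The complement of the seed, AAAGACA read on the sense strand, occurred in 0 of the 76 member probe sequences and in 0.97% of all 34127 probes. A probe is a window of 60 bases, so this says nothing about the rest of a transcript.

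Values are given as normalized log2 intensity, the log2 of the background-subtracted signal after quantile normalization, in which a difference of 1 is a doubling. They compare 1 probe between arrays and not 1 gene with another. A gene is represented by its brightest probe, and a probe was tested if either treatment had it well above background on both of its arrays. The arrays held between 64.8% and 69.3% of probes well above background, came from 1 slide, and had no saturated non-control spot. Of 9 monocytic or myeloid marker genes found on the array, 9 were well above background on all 4 arrays. HOXA9 and HOXA10, which MLL fusions keep active, were above it on all 4 and MEIS1 on 2. Neither fibroblast marker was detected, whereas 1 of 4 T cell, 2 of 3 B cell, 2 of 2 erythroid and 1 of 2 epithelial markers were above background throughout, and none of the markers had an unadjusted limma p below 0.05 between treatments.

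Most of this machinery was transcribed. Of the 55 genes, 52 were well above background on all 4 arrays and were tested. No array had the other 3 well above background: CDKN2B, an INK4 inhibitor, CDK15, a little-studied kinase, and CCNI2, a cyclin I relative. CDKN2B carried the scanner's surrogate value, which replaces a signal too low to measure, on all 4 arrays. CDK15 did so on 3 arrays and CCNI2 on 1. No fold change is given for these 3 genes.

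For the D-type cyclins, the question was whether the miR-511 arrays differed from the control arrays. CCND1, or cyclin D1, was read by 1 probe at chr11:69468233-69468292 (hg19) that is printed 10 times per array. Its normalized log2 intensity was 6.05 with the control mimic and 5.95 with the miR-511 mimic in experiment 1, and 6.02 and 5.68 in experiment 2. Both miR-511 arrays lay below both control arrays, and the difference was larger in the second experiment (-0.34) than in the first (-0.10). The log2 fold change (log2FC) was -0.22 with a standard error of 0.13, and limma gave an unadjusted p of 0.156 and an adjusted p of 1.00. The study called CCND1 changed on these arrays at an unadjusted p below 0.05, and why the results differ was not tested. The 95% interval of the log2FC ran from -0.58 to 0.13. The value was -0.36 without the miR-511 array of experiment 1, -0.09 without that of experiment 2, and -0.09 with normexp background correction, and none of these passed the threshold.

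The 10 copies of the CCND1 probe show the scatter within an array. All 10 were well above background on every array, but their mean signal was below the median of all non-control spots. It was 54 to 72 before normalization, against array medians of 92 to 111. The standard deviation of the copies was 0.15 on the miR-511 array of experiment 1 and between 0.094 and 0.097 on the other 3. In experiment 1 the copies of both treatments overlapped, from 5.67 to 6.06 with miR-511 and from 5.88 to 6.21 with the control mimic. In experiment 2 they did not: the miR-511 copies ended at 5.81 and the control copies began at 5.87. Copies on 1 array share 1 RNA sample, so they describe the reading and add no replicate.

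CCND2, or cyclin D2, was read by 1 spot at chr12:4414040-4414099 (hg19). The spot was dim, not far above the lowest values well above background, which were 2.98 to 3.44 depending on the array. It read 4.40 with the control mimic and 4.19 with miR-511 in experiment 1, and 4.00 and 4.29 in experiment 2. The experiments therefore pointed in opposite directions (-0.21 and 0.29), with a log2FC of 0.04 ± 0.17 (SE, n = 2 arrays per treatment) and a limma p of 0.827. Its sign turned under 75th percentile scaling, and the value was -0.16 without the control array of experiment 2 and -0.0094 without the miR-511 array of that experiment.

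CCND3, or cyclin D3, was read by 1 spot at chr6:41903193-41903252 (hg19, minus strand). It read 13.59 with the control mimic and 13.50 with miR-511 in experiment 1, and 13.53 and 13.40 in experiment 2. As with CCND1, the groups did not overlap and both experiments gave a lower value with miR-511 (-0.08 and -0.14). The log2FC was -0.11 ± 0.10 (SE, n = 2 arrays per treatment) with a limma p of 0.317, and the value was -0.16 without the miR-511 array of experiment 1 and -0.06 without that of experiment 2. The 95% intervals ran from -0.43 to 0.50 for CCND2 and from -0.38 to 0.16 for CCND3, and each spanned 0 as that of CCND1 did. Whether the 3 genes differ from each other in their response was not tested.

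**Figure D1:**
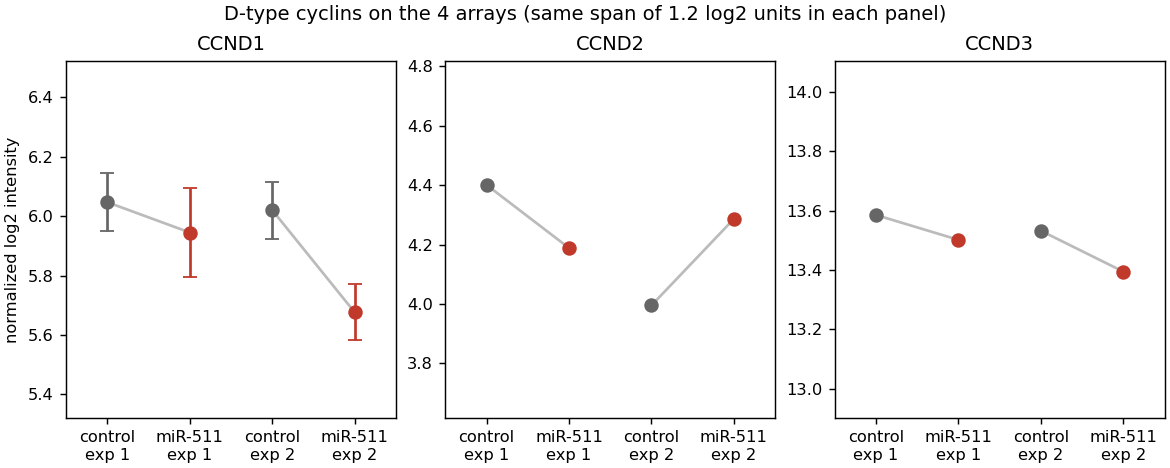
Normalized log2 intensity of CCND1, CCND2 and CCND3 on each array, with control mimic in grey and miR-511 mimic in red and a line joining the arrays of 1 experiment. Bars on CCND1 are the standard deviation of its 10 spots, and the other genes have 1 spot. CCND1 and CCND3 are lower with miR-511 in both experiments, by 0.10 and 0.34 and by 0.08 and 0.14, and CCND2 moves in opposite directions.

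Across all 52 tested members, 0 had an unadjusted limma p below 0.05 between miR-511 and control mimic, against 2.12% of the 17996 genes tested. After Benjamini-Hochberg adjustment the count was 0 among the members and 0% among all genes. The smallest unadjusted p of a member was 0.0857, and 0 of the 72 tested member probes passed either. With the experiment as a block in the fit, 1 member passed, CCNT1, against 3.88% of all genes, and over the 72 probes the dimmest CCNG2 probe passed as well. The members' log2FC ran from -0.95 to 0.31, with 31 above and 21 below 0. Their median was 0.02 against 0.01 over all genes, and the median size of the change was 0.076 against 0.078. The treatments did not overlap for 12 of the 52 members, or 23.1%, against 25.8% of all genes, and 7 of these were lower and 5 higher with miR-511. In both experiments alike, 22 members were higher and 11 lower, which is 63.5% with 1 direction against 51.7% of all genes.

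At the median standard error of the members, 0.12, a change of 0.33 on the log2 scale, 1.26-fold, would have reached an unadjusted p of 0.05. For 50 of the 52 members the 95% interval lay within a doubling or halving, and the exceptions were CDK18 and CCNT2. For the member with the smallest standard error, a change of 0.25 would have sufficed. An exact permutation test of a single gene cannot give a two-sided p below 0.333 here.

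**Figure D2:**
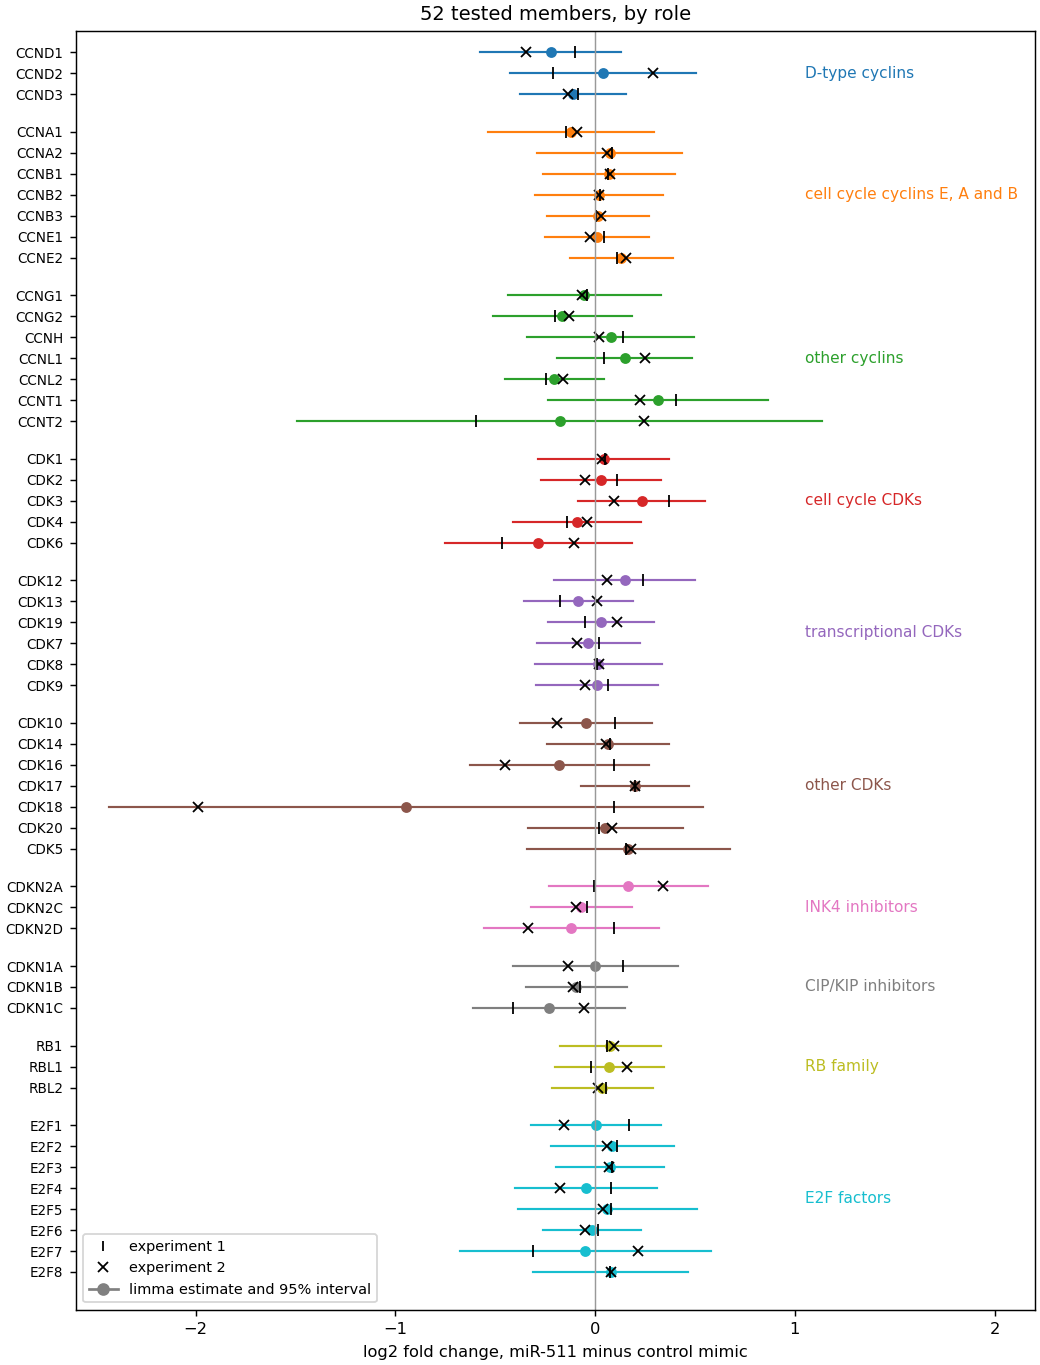
Log2 fold change of miR-511 over control mimic for the 52 tested members by role, with the limma estimate and its 95% interval, and the difference in experiment 1 (bar) and experiment 2 (cross). All intervals span 0, and CDK18 has the lowest estimate and the widest interval.

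Among the cyclins of S phase and mitosis, 7 of 7 were detected, though CCNB3 only dimly (4.99 to 5.07), and none passed the test. Their log2FC ran from -0.12 for CCNA1, the cyclin A known from the germ line, to 0.13 for CCNE2, a cyclin E. CCNE2 was higher with miR-511 in both experiments (0.11 and 0.15), without overlap, and its second probe gave 0.18. CCNB1, a mitotic cyclin, differed by 0.06 and 0.07. With 75th percentile scaling or normexp background correction 5 of the 7 lay above 0, and 6 with quantile normalization.

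The kinases of the cell cycle gave values on both sides of 0. CDK6, a partner of the D-type cyclins, had the lowest log2FC among members whose experiments had 1 direction. It read 13.96 with the control mimic and 13.49 with miR-511 in experiment 1, and 14.02 and 13.91 in experiment 2. The log2FC was -0.29 ± 0.17 (SE, n = 2 arrays per treatment) with a limma p of 0.167, and it rested on 1 array. Without the miR-511 array of experiment 1 the value was -0.08, and without that of experiment 2 it was -0.49. CDK4, the other kinase of the D-type cyclins, had a log2FC of -0.09, CDK2 0.03 and CDK1 0.04.

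CDK3, a kinase linked to cell cycle entry, was the highest of this group. It read 9.32 with the control mimic and 9.70 with miR-511 in experiment 1, and 9.52 and 9.62 in experiment 2. The groups did not overlap, but the experiments differed in size, 0.37 and 0.09. The log2FC was 0.23 ± 0.12 (SE, n = 2 arrays per treatment) with a limma p of 0.113, and it passed the unadjusted threshold after normexp background correction. Without the control array of experiment 1 the value was 0.13.

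Cyclins and kinases of transcription and splicing were all detected, and the highest estimate of all members was found here. CCNT1, a cyclin of the elongation kinase CDK9, read 7.56 with the control mimic and 7.97 with miR-511 in experiment 1, and 7.30 and 7.52 in experiment 2. The treatments overlapped, because experiment 2 gave lower values under both mimics, while each experiment was higher with miR-511 (0.40 and 0.22). The log2FC was 0.31 ± 0.20 (SE, n = 2 arrays per treatment) with a limma p of 0.191, and p was 0.0443 with the experiment as a block. Without the miR-511 array of experiment 2 the value was 0.54 and without that of experiment 1 it was 0.09.

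CDK9 itself had a log2FC of 0.01. CCNT2, the other cyclin of CDK9, went in opposite directions (-0.60 and 0.24). CCNL2, a cyclin linked to splicing and named after its values were seen, had the smallest p of all members, 0.0857 in limma. It was lower with miR-511 by 0.25 and 0.16, and its log2FC was -0.20. It passed the unadjusted threshold after normexp background correction and with an intensity trend in limma. Its second probe was lower as well, whereas the third differed in sign between the experiments (0.24 and -0.46). CCNL1, its relative, had a log2FC of 0.15. The 6 transcriptional CDKs ran from -0.08 for CDK13 to 0.15 for CDK12, 4 of them above 0 and 3 with 75th percentile scaling. Dimmer probes of CDK13 differed in sign, with -0.14 and 0.09.

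Of the remaining kinases, CDK17, of the PCTAIRE family, gave nearly equal differences in both experiments. It read 6.69 with the control mimic and 6.89 with miR-511 in experiment 1, and 6.78 and 6.98 in experiment 2. The groups did not overlap, with a log2FC of 0.20 ± 0.10 (SE, n = 2 arrays per treatment) with a limma p of 0.110.

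CDK18, from the same family and singled out after its values were seen, varied most. Its control arrays read 4.51 in experiment 1 and 5.88 in experiment 2, and its miR-511 arrays 4.60 and 3.89. The second experiment alone gave a difference (-1.99, against 0.09 in the first), and the log2FC was -0.95 with a standard error of 0.54. With normexp background correction the log2FC was -0.23. The probe was dim: CDK18 read 3.89 on the miR-511 array of experiment 2, where the lowest value well above background was 3.33. CDK18 was the only member with an estimate over 0.5 in size in the main setting, and 1 array moved that estimate either way. Without the control array of experiment 2 the value was -0.26, and without that of experiment 1 it was -1.63.

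Among the inhibitors, CDKN1C, the CIP/KIP protein p57, was the lowest. It read 10.38 with the control mimic and 9.97 with miR-511 in experiment 1, and 10.33 and 10.27 in experiment 2. The groups did not overlap, and nearly all of the difference came from experiment 1 (-0.41 against -0.05). The log2FC was -0.23 ± 0.14 (SE, n = 2 arrays per treatment) with a limma p of 0.167, and it was -0.08 without the miR-511 array of experiment 1 and -0.38 without that of experiment 2.

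CDKN1B, the CIP/KIP protein p27, was lower in both experiments on both of its probes, which gave a log2FC of -0.09 and -0.18. CDKN1A, the p53 target p21, differed by 0.14 in experiment 1 and by -0.13 in experiment 2. Of the INK4 inhibitors, CDKN2C had a log2FC of -0.07 and CDKN2D of -0.12. The brightest CDKN2A probe gave 0.17, with differences of -0.01 and 0.34. A second CDKN2A probe, for another transcript of this gene, was well above background on 1 array only, the miR-511 array of experiment 2, and was not tested.

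The RB family lay within a narrow range, from 0.04 for RBL2 to 0.08 for RB1, and all 3 were above 0 with each of the scalings tried. RB1 is the pocket protein that the D-type cyclin kinases phosphorylate, and its 10 spots per array averaged 13.00 and 13.06 in experiment 1 and 13.05 and 13.14 in experiment 2, control mimic first. RBL1, or p107, gave 0.07 on its brightest probe and -0.50 on a dimmer one, whose value came from experiment 1 alone (-1.05 against 0.05).

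The 8 E2F factors were all detected and ran from -0.05 for E2F7 to 0.09 for E2F2. E2F1, an activator, had differences of 0.17 in experiment 1 and -0.16 in experiment 2. E2F2 and E2F3, also activators, had differences of 0.11 and 0.06 and of 0.08 and 0.07. E2F7, a repressor, went in opposite directions (-0.31 and 0.21), and its dimmer probe had a log2FC of 0.09. The probes of E2F6 also differed in sign, with -0.02 on the brightest and 0.09 and 0.01 on the dimmer ones.

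**Figure D3:**
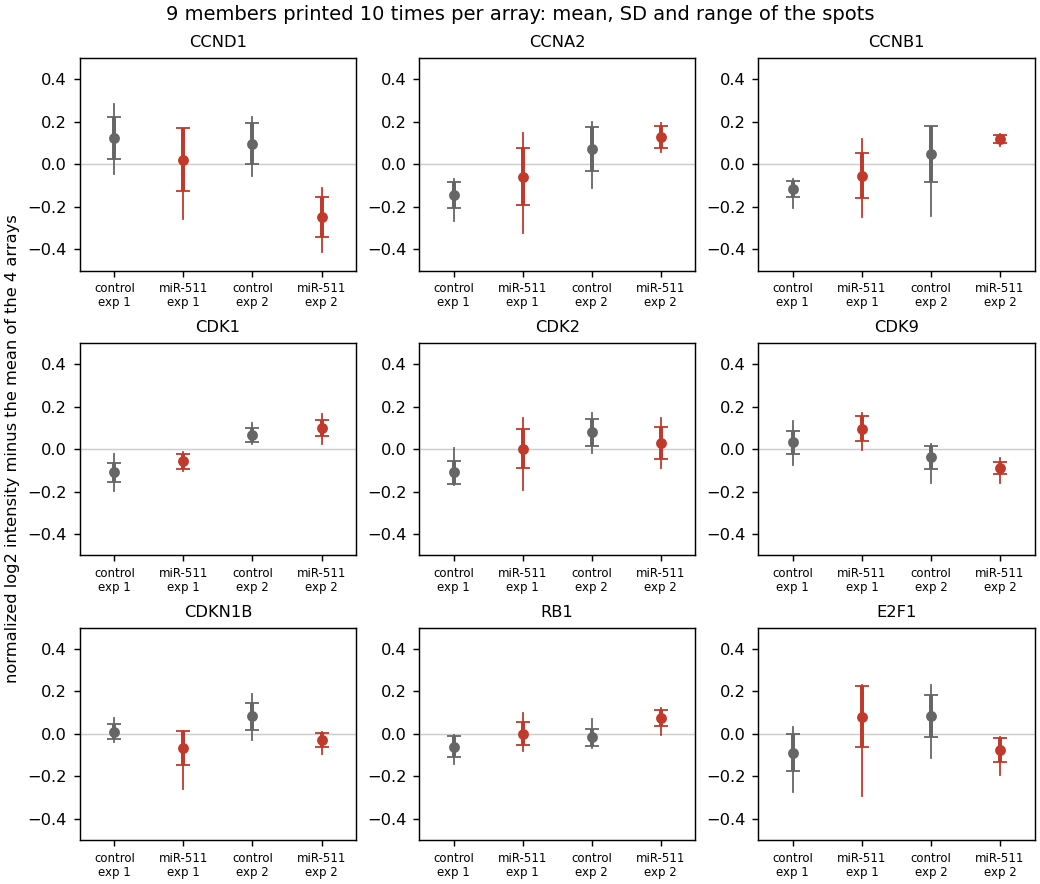
Normalized log2 intensity of the 9 members printed 10 times per array, relative to the mean of the 4 arrays, with the mean of the spots (point), their standard deviation (thick bar with caps) and their range (thin line), control mimic in grey and miR-511 mimic in red. CCND1 is lowest on the miR-511 array of experiment 2, and CDK1, CCNA2 and CCNB1 are higher in experiment 2 under both mimics.

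Neighbouring genes of the pathway gave the same count. The 30 other regulators of CDKs and of RB included the CDC25 phosphatases, WEE1 and subunits of the DREAM complex. Of these, 30 were tested and 0 had an unadjusted limma p below 0.05, against 2.12% of all genes. A list this short can give 0 at that share. Their log2FC ran from -0.27 to 0.26 with a median of 0.03, and 5 of the 30 did not overlap, against 25.8% of all genes. Of 25 genes known as E2F targets, such as the MCM helicase subunits, 25 were tested and 0 passed, against the same 2.12%. Their log2FC ran from -0.31 to 0.37 with a median of 0.04, and 5 of the 25 did not overlap, against the same 25.8%. With all arrays kept, 1 E2F target passed under 2 of the other settings. CDT1 passed with normexp background correction, against 1.16% of all genes. UNG passed by a test without limma's moderation of the variance, against 3.05%.

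How far the members differed between the experiments, whatever the mimic, was asked with the experiment term of a fit that also held the treatment. At an unadjusted limma p below 0.05, 4 of 52 members differed, or 7.69%, against 11.8% of all genes. None did after adjustment, as 0% of all genes, and the smallest adjusted p among the members was 0.406. The count of members ranged from 1 of 55 when dim probes were kept, with 8.07% of all genes, to 11 of 52 with an intensity trend, with 13.6%. The difference between experiments was larger than that between mimics for 32 of the 52 members, or 61.5%, against 62.2% of all genes. Its sign was the same under both mimics for 37 members, or 71.2%, against 63.3% of all genes.

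The 4 genes were CDK5, CCNT1, E2F5 and CCNT2, and of these CDK5, E2F5 and CCNT2 were named after their values were seen, because they are few. CDK5, a kinase best known from neurons, read 11.43 and 11.59 in experiment 1 and 11.09 and 11.27 in experiment 2, control mimic first, a difference of -0.33 ± 0.08 (SE) with a limma p of 0.024. CCNT1 was lower in experiment 2 by 0.27 with the control mimic and by 0.45 with miR-511, with a limma p of 0.0322. These were the 2 genes that fell from the first experiment to the second at this threshold.

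E2F5, a partner of the pocket proteins, read 7.66 and 7.74 in experiment 1 and 7.96 and 8.0 in experiment 2, a difference of 0.28 ± 0.08 (SE) with a limma p of 0.0377. CCNT2 read 6.67 and 6.08 in experiment 1 and 7.11 and 7.36 in experiment 2, a difference of 0.86 ± 0.26 (SE) with a limma p of 0.0445. The arrays of the experiments did not overlap for any of the 4 genes. They were picked for this difference on the same arrays, so the lack of overlap is no further support.

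Among the 7 cyclins of S phase and mitosis the differences between experiments went both ways, with a median of -0.06, and none passed the test. CCNA2, CCNB1 and CCNB2 had differences of 0.20, 0.17 and 0.16, with unadjusted limma p-values of 0.0811, 0.119 and 0.133. CCNA1 had a difference of -0.25 with an unadjusted limma p of 0.0507, and CCNB3, CCNE1 and CCNE2 each had a difference of -0.06. CDK1, the kinase of the B cyclins, had a difference of 0.17 with an unadjusted limma p of 0.122. What set the experiments apart was not tested.

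**Figure D4:**
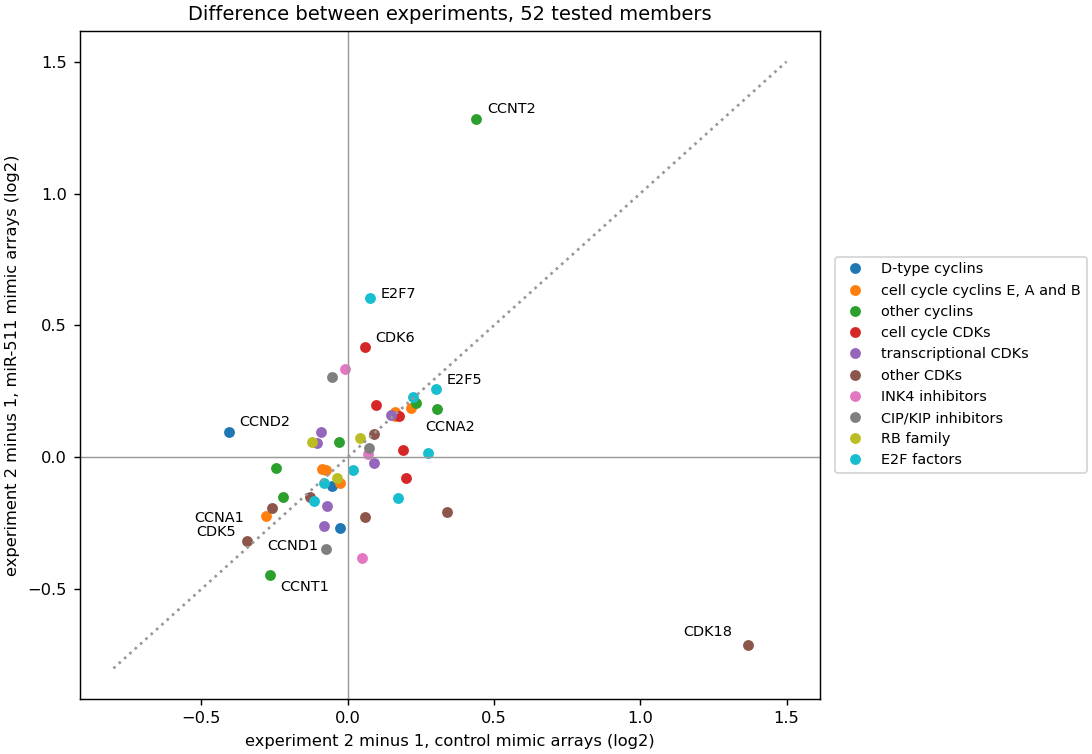
Difference between the experiments (experiment 2 minus experiment 1, log2) for the 52 tested members, with the control mimic arrays on the x axis and the miR-511 arrays on the y axis, coloured by role. The dotted line marks equal differences, 37 members share a sign, CCNT2 is high under both mimics and CDK18 is high with the control mimic and low with miR-511.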

How the data were processed

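RNA of THP1 cells was hybridized to single-dye Agilent arrays. Per the labels and file headers, the authors used Agilent Feature Extraction (10.5.1.1 in the processing notes, while a header gives 10.7.3.1 for its spot analysis module), and the deposited intensity of each spot was background-subtracted within the array. A second deposited file holds the authors' quantile-normalized log2 values.

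The log2 of the deposited intensity was taken for 43118 non-control spots, leaving out 232 to 301 marked outliers per array. Arrays were quantile normalized and spots of a probe averaged. The 22638 probes with a value on all 4 arrays that either treatment had well above background on both of its arrays were tested with limma 3.58.1 in R 4.3.3 (lmFit, eBayes, no block, two-sided, 4.14 total degrees of freedom). A probe printed several times counted as above background when more than 50% of its spots were. P-values were read at 0.05, unadjusted as in the study and after Benjamini-Hochberg adjustment over all tested probes. The study also required a t-test p below 0.05 over identical replicate probes, and that criterion was not applied here. Background counts use the brightest probe of each of 17996 genes.

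The members and lists were chosen with earlier results of these data known. By the naming rule, all arrays are given for CCND1, CCND2, CCND3, for members past the threshold between mimics, and for the 3 largest rises and 3 largest falls among members with 1 direction in both experiments. Other members are given by role, with 2 to 4 examples.

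The labels give the experiment of each array, so the number pairs the arrays. Deviations from the treatment means of arrays with the same number correlated at 0.271 across tested probes and 0.0892 across the 52 members. Names were checked against RefSeq (GRCh38.p14), where 75 of 76 member probes matched by accession, all with the same symbol. Coordinates are those of the files (hg19). The position of probes in transcripts was not analysed here. The functions were tested on simulated data.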

Additional observations from a re-analysis of the deposited data

How the results depend on the processing

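The count of members with an unadjusted limma p below 0.05 between mimics, 0, became 1 with the replicate block (CCNT1), which pairs the arrays by experiment, 2 with normexp background correction (CDK3 and CCNL2), 1 with an intensity trend (CCNL2) and 1 by a plain t-test without an exact form (CCNL2). With each array left out it lay between 0 and 3, the highest without miR-511 replicate 2 (CCNT1, CDK6 and CCNT2), and it was 1 without control replicate 1 (CDK18). Over member probes rather than brightest probes, the block also gave a call to a dimmer CCNG2 probe, and it called no other member probe. The cause was not tested. Adjusted counts over all tested probes were 0 in every setting. For E2F targets the count was 1 with normexp and 1 by the plain t-test, against the same shares of all genes. For the other regulators it was 0 in every setting run with all arrays. For the D-type cyclins it was 0 in every setting run.

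CCND2 reversed to -0.0028 with 75th percentile scaling and ranged from -0.16 to 0.24 with arrays left out, including -0.0094 without miR-511 replicate 2. CCND1 ranged from -0.36 to -0.09 and CCND3 from -0.16 to -0.06. The median log2FC of the members was -0.0370 without control replicate 1 and -0.0088 without miR-511 replicate 2.

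Between experiments, 4 members became 8 with normexp (13.2% of all genes), 1 without the filter on dim probes (8.07%), 11 with an intensity trend (13.6%) and 7 with no treatment term (13.8%). Over all tested probes, the count between mimics was 498 in the main setting and 894 with the block. It was 265 with normexp, 1029 without the filter and 285 with the trend. A slide block (1 slide), other probes for D-type cyclins (1 each) and leaving out arrays between experiments were not run. With 2 arrays per treatment, precision is set by their number.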
